A study of Homo sapiens with 6 samples.

Results

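The TEAD genes and the genes of their cofactors were followed through an RNA sequencing experiment in FaDu, an established line of squamous carcinoma cells from the hypopharynx. The members were taken by name: TEAD1, TEAD2, TEAD3 and TEAD4, the coactivator genes YAP1 and WWTR1 (which encodes TAZ), and VGLL1, VGLL3 and VGLL4 of the vestigial-like family. All 9 were present among the 58825 genes of the count table and all 9 passed the filter on low counts, as did 19081 genes in all. The first group, called FaDu, is titled with the name of the line alone, and its titles name no hairpin. The second, called shNSUN2, is the same line with a short hairpin RNA against NSUN2, an RNA methyltransferase that makes 5-methylcytosine, and each group has 3 libraries. No library is titled as having a control hairpin, so lower NSUN2, the presence of any hairpin and its delivery cannot be told apart. The sources used here do not say whether replicates were separate cultures, or whether the hairpin cells were 1 clone or a pool, so p-values measure only the spread between these libraries, which may be technical.

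TEAD proteins bind DNA through their TEA domain but hardly activate transcription alone. YAP1 and TAZ carry the activating part and sit on TEAD when the Hippo kinases do not hold them in the cytoplasm. The vestigial-like proteins bind the same TEAD surface through a short Tondu motif. VGLL4 is known as a repressor that competes with YAP1, whereas VGLL1 is made in few tissues, among them placenta and some epithelia. In squamous epithelium and its carcinomas this system is known for its part in growth of basal cells. The question of the series is which transcripts change when NSUN2 is lowered, and TEAD1 is the transcript that the study follows, so its own test is not independent evidence about that choice.

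Levels are given as CPM, the estimated count scaled to the TMM-adjusted library total, a unit that removes differences in depth. Totals were 53612358 to 72788971 estimated counts per library. NSUN2 itself was at 156 to 173 CPM in FaDu and at 34.7 to 50.4 CPM in shNSUN2, without overlap (log2 fold change -2.0, standard error 0.16, adjusted p by edgeR 0.000526). An exact permutation test of these CPM, two-sided, cannot go below p = 0.1 with 3 libraries on each side, and it gave 0.1. Within shNSUN2, replicate 3 differed from the other replicates along the GC content and length of genes. Its log2 difference from replicates 1 and 2 had a Spearman rho of 0.421 and 0.361 with GC content and -0.253 and -0.201 with exonic length across 19033 genes, which are not independent replicates.

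Markers from a list for squamous epithelium were present in both groups. All 11 were tested, with a sum of 4716 to 4893 CPM in FaDu and 4084 to 4963 CPM in shNSUN2. The sum hides opposite changes. KRT8, KRT18 and EPCAM were the 3 called higher, and KRT5, KRT14, KRT6A, KRT17, TP63, DSG3 and SFN the 7 called lower. KRT17 was the largest part of the sum in each FaDu library and KRT8 in each shNSUN2 library. KRT5, a keratin of basal stratified epithelium, was at 1020 to 1334 CPM in FaDu and 487 to 636 CPM in shNSUN2, whereas KRT8, a keratin of simple epithelium, was at 226 to 315 and 1193 to 1524 CPM. Markers of some other cell types were higher in shNSUN2. The endothelial marker CDH5, at 28.0 to 50.7 CPM there, was above TEAD1 and VGLL1 in each of these libraries. The leukocyte gene PTPRC was listed at 0 in every library. Sums of 6 plasma cell markers (0 to 0.267 CPM in FaDu, 1.90 to 5.73 CPM in shNSUN2) and 9 prostate markers (31.2 to 33.8 and 53.8 to 70.4 CPM) were higher in shNSUN2, with KLK3 at 10.2 to 16.8 CPM against 0 to 0.160 and MSMB at 0 throughout FaDu. The 6 endothelial markers summed to 4.07 to 5.84 CPM in FaDu and 31.8 to 54.8 CPM in shNSUN2, there nearly all CDH5. The 8 leukocyte markers summed to 31.3 to 51.6 and 37.8 to 46.2 CPM, nearly all CD68 and CD14. Fibroblast markers summed to 9.04 to 9.50 and 6.44 to 11.6 CPM and smooth muscle markers to 18.2 to 21.2 and 13.8 to 29.8 CPM. Of the smooth muscle markers 2 were called higher, among them ACTG2 (0 in FaDu, and 1.49, 0.320 and 0.355 CPM in shNSUN2 replicates 1, 2 and 3), and 1 lower, ACTA2 (7.75 to 10.7 and 1.88 to 3.90 CPM). The part of these transcripts in the results below was not tested.

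Of the 9 members, 3 (33.3%) were called at an adjusted p under 0.05, against 18.5% of all tested genes. TEAD1 and VGLL4 were lower and VGLL1 was higher in shNSUN2, where 9.97% of all genes were called lower and 8.54% higher. The CPM of the groups did not overlap for 4 members, the same 3 and YAP1, which is close to the 42.3% of all tested genes that showed no overlap. The median log2 fold change of the members was 0.05, beside -0.0069 over all tested genes. With 9 genes, these shares describe the members and say nothing on whether they differ from other genes. Since bulk RNA was measured, fewer cells with a transcript and less of it per cell cannot be told apart.

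**Figure D1:**
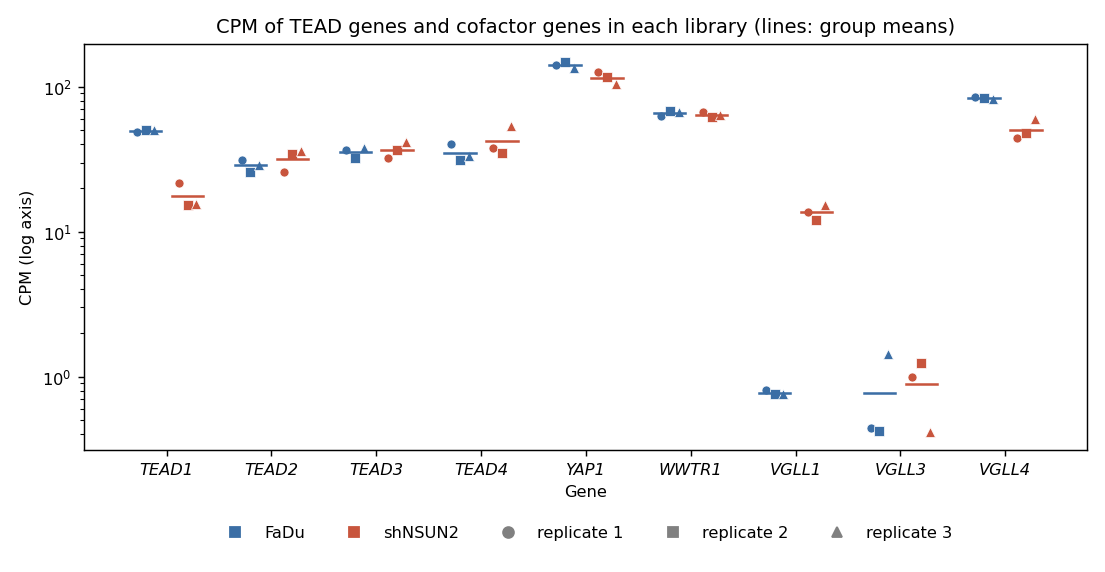
CPM of the 9 genes (log axis) in each library, FaDu in blue and shNSUN2 in red, with a marker shape for each replicate and a line at each group mean. TEAD1 and VGLL4 lie lower in all 3 shNSUN2 libraries, VGLL1 lies higher in all 3, and the points of TEAD2, TEAD3, TEAD4, WWTR1 and VGLL3 overlap between groups.

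The promoters of VGLL1 and YAP1 are shown because they are the members whose RefSeq promoter windows hold the letters of the TEAD site. The core letters of that site, GGAATG or CATTCC on the other strand, were searched in the 250 bases before each RefSeq start (GRCh38.p14). Of the 9 members 7 had an entry, with 13 windows in all. TEAD1 and TEAD4 had none. The letters occurred in 2 of the 13 windows and in 11.9% of all 35116 promoter windows of that length. The stretch from 250 to 101 bases before the start is printed 5′ to 3′ for each, with the TEAD letters in capitals. Both lie on the plus strand, VGLL1 at chrX:136531965-136532114 and YAP1 at chr11:102110197-102110346.
VGLL1: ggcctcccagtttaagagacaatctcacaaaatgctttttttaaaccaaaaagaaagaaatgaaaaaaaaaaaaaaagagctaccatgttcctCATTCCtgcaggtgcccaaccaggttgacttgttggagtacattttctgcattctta
YAP1: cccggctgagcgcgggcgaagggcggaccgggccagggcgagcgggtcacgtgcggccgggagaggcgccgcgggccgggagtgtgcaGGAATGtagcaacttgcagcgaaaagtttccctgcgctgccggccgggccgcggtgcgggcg
In VGLL1 the letters begin 157 bases before the start and read on the minus strand. In YAP1 they begin 162 bases before it and read on the plus strand. The AP-1 letters TGANTCA, a site often found beside TEAD sites, were in none of the 13 windows and in 6.6% of all windows. A match is a description of the sequence and not a site of binding, and no match says only that these letters are not in these windows.

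TEAD1 fell in shNSUN2. The gene (ENSG00000187079) lies on chromosome 11 from 12674591 to 12944483, on the plus strand (GRCh38, GENCODE 29), and encodes the TEAD protein long known from muscle gene promoters and found in many tissues. It had 48.9, 49.9 and 50.6 CPM in FaDu replicates 1, 2 and 3 and 21.8, 15.2 and 15.6 CPM in shNSUN2. The FaDu libraries were within 2 CPM of each other, every shNSUN2 library was below all of them, and replicate 1 was the highest of the shNSUN2 libraries. The mean went from 49.8 ± 0.901 to 17.5 ± 3.68 CPM (SD, n = 3), or 35.2% of the FaDu level. As a log2 fold change this is -1.51 (standard error 0.17, adjusted p by edgeR 0.00160), larger in size than that of 92.6% of tested genes. It was called under each of the 16 alternatives, with log2 fold changes of -1.69 to -1.35. The value nearest to 0 came from a correction for GC content and length. The longest transcript of TEAD1 has 41.3% GC, and its exons cover 10279 bases.

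The other TEAD genes did not pass the test. TEAD2, known from the early embryo and neural tissue, had 31.1, 25.9 and 29 CPM in FaDu and 25.7, 34.3 and 35.9 CPM in shNSUN2 (log2 fold change 0.16, 95% interval -0.22 to 0.53, edgeR adjusted p = 0.543). TEAD3, known from placenta, had 36.3, 32.4 and 37.8 CPM in FaDu and 32.3, 36.5 and 41.3 CPM in shNSUN2 (0.05, interval -0.27 to 0.37, edgeR adjusted p = 0.850). The groups overlapped for both genes. CD37, which shares 319 exonic bases with TEAD2, was at 0.551 ± 0.202 and 0.437 ± 0.199 CPM. The sign of the TEAD3 value changed without TMM scaling (-0.012), without FaDu replicate 2 (-0.015) and without shNSUN2 replicate 3 (-0.044).

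TEAD4, the TEAD of the trophectoderm, had 40.4, 31.4 and 33.5 CPM in FaDu and 37.6, 35.1 and 53.5 CPM in shNSUN2. Replicate 3 of shNSUN2 was the highest of all 6 libraries, and the other shNSUN2 libraries lay within the FaDu range. The log2 fold change was 0.26 (95% interval -0.18 to 0.70, edgeR adjusted p = 0.381), and 0.05 without shNSUN2 replicate 3. With the GC and length correction it was 0.21. For TEAD2, TEAD3 and TEAD4 the intervals reach up to 0.70 and down to -0.27, so changes within those bounds are not excluded. The interval of TEAD1, -1.89 to -1.12, did not overlap those of the other TEAD genes.

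**Figure D2:**
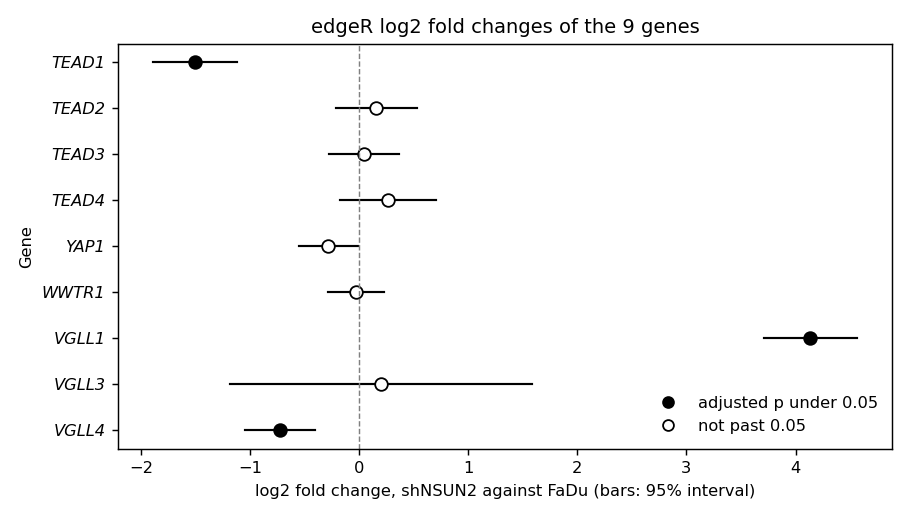
The edgeR log2 fold change of each gene, shNSUN2 against FaDu, with its 95% interval, filled where the adjusted p was under 0.05. VGLL1 stands at 4.14, TEAD1 at -1.51 and VGLL4 at -0.73, while the intervals of TEAD2, TEAD3, TEAD4, WWTR1 and VGLL3 include 0.

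Levels were compared between genes per kb of exon, since long genes give more reads. On that scale TEAD1 was the least abundant TEAD transcript in both groups, as it was per kb of the longest transcript. This rests on the 10279 exonic bases of TEAD1, and which of them these cells use was not checked. Before division by length, TEAD1 had the highest mean CPM of the TEAD genes in FaDu (49.8). In FaDu it stood at 4.85 ± 0.088 CPM per kb, below TEAD2 at 9.61 ± 0.877, TEAD3 at 11.7 ± 0.915 and TEAD4 at 15.4 ± 2.06 (SD, n = 3). In shNSUN2 TEAD1 was at 1.70 ± 0.358 CPM per kb, and TEAD2, TEAD3 and TEAD4 at 10.7 ± 1.85, 12 ± 1.48 and 18.5 ± 4.41. TEAD1 thus made up 10.6%, 12.8% and 11.8% of the summed TEAD level in FaDu and 5.60%, 3.67% and 2.98% in shNSUN2. The groups did not overlap in this share. TEAD4 held the largest share in every library, 37.1% ± 2.25 in FaDu and 42.8% ± 4.2 in shNSUN2. The summed TEAD level was 41.6 ± 3.44 and 43.0 ± 6.80 CPM per kb, with overlapping groups. These shares and sums are descriptions without a test.

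Ratios within a library do not depend on how libraries are scaled. The log2 ratio of TEAD1 to TEAD4 per kb was -1.66 ± 0.209 in FaDu and -3.44 ± 0.501 in shNSUN2. That of TEAD1 to TEAD3 was -1.26 ± 0.115 and -2.83 ± 0.449. Both ratios were lower in every shNSUN2 library than in any FaDu library, so the measured levels within the family changed unequally. The ratios were not corrected for GC content or length, along which shNSUN2 replicate 3 differed. The longest transcript of TEAD1 has 41.3% GC, against 59.8% for TEAD3 and 60.4% for TEAD4. In shNSUN2 replicates 1, 2 and 3 the log2 ratio of TEAD1 to TEAD4 was -2.96, -3.38 and -3.96. Without replicate 3 the difference between groups was -1.51 in place of -1.77. The part of GC content and length in these ratios was not tested.

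**Figure D3:**
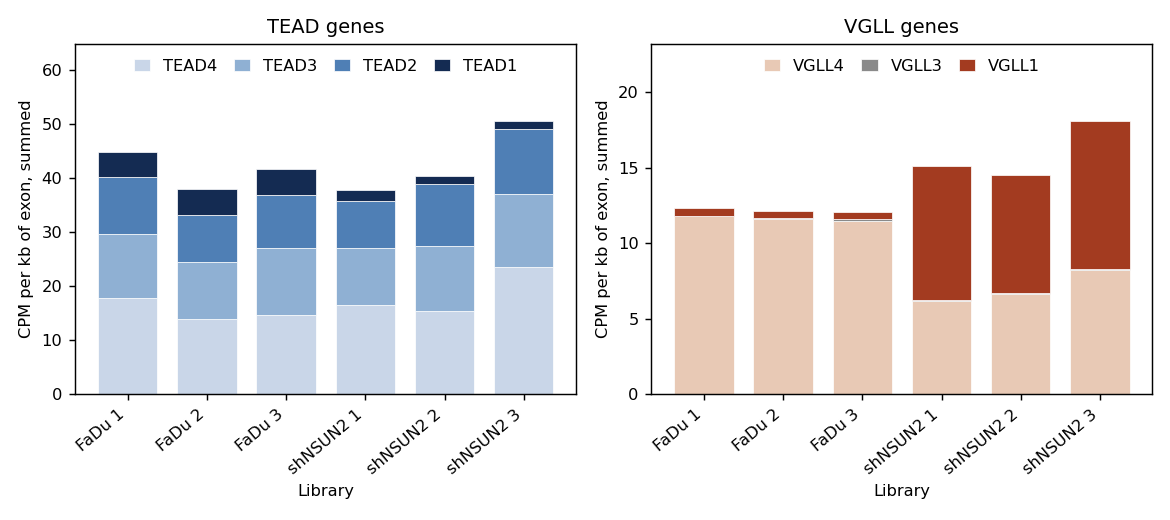
Stacked CPM per kb of exon in each library for the TEAD genes (left) and the VGLL genes (right). The TEAD1 segment shrinks from 11.7% to 4.08% of the TEAD sum on average, and the VGLL1 segment grows from 4.11% to 55.6% of the VGLL sum.

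Of the coactivators, YAP1 was the more abundant and neither passed the test. YAP1 (chromosome 11, 102110461 to 102233423) encodes the Yes-associated protein, the main output of the Hippo kinases. It had 141.6, 147 and 134 CPM in FaDu and 126, 117 and 104 CPM in shNSUN2. Every shNSUN2 library was below every FaDu library, with means of 141 ± 6.62 and 116 ± 10.9 CPM. The fit gave a log2 fold change of -0.28 (standard error 0.12, 95% interval -0.55 to -0.01, unadjusted p = 0.0421, adjusted p by edgeR 0.132). As given above, ranges without overlap were found for 42.3% of all tested genes. None of the 16 alternatives called it, with adjusted p of 0.0882 to 0.350, and its log2 fold change kept its sign throughout, at -0.34 to -0.20. The antisense gene that overlaps YAP1 exons had no counts in any library.

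WWTR1 (chromosome 3, 149517235 to 149736714) encodes TAZ, the paralog of YAP1. It had 62.4, 67.6 and 66.5 CPM in FaDu and 67.2, 62.0 and 63.4 CPM in shNSUN2, and the groups overlapped. Its log2 fold change was -0.029 (95% interval -0.28 to 0.23, edgeR adjusted p = 0.881) and turned to 0.12 with the GC and length correction. Per kb, YAP1 made up 74.2% ± 1.17 of the pair in FaDu and 70.6% ± 1.64 in shNSUN2. The antisense gene WWTR1-AS1, which shares 795 exonic bases with WWTR1, was at 0.602 ± 0.229 and 0.590 ± 0.109 CPM, far below WWTR1 itself.

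VGLL1 rose more than any other member. The gene (ENSG00000102243, chromosome X, 136532152 to 136556807, plus strand) encodes a small nuclear protein that binds TEAD in place of YAP1 and TAZ. It had 0.801, 0.752 and 0.762 CPM in FaDu and 13.7, 12 and 15.2 CPM in shNSUN2. The spread within each group was small beside the gap between them. The mean went from 0.772 ± 0.026 to 13.6 ± 1.61 CPM (SD, n = 3), 17.6 times the FaDu mean. As a log2 fold change this is 4.14 (standard error 0.19, adjusted p by edgeR 9.90e-05), larger in size than that of 99.3% of tested genes. The FaDu level rests on 49, 41 and 57 estimated counts, which may stand for fewer fragments, since the value 4 was in excess among low counts. With the counts divided by 4 the log2 fold change was 4.16, and over all 16 alternatives it was 4.05 to 4.22 and called each time.

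VGLL1 is known from trophoblast and urothelium, whose markers were therefore looked at beside it. The 6 trophoblast markers summed to 0.0327 to 0.347 CPM in FaDu and 0.926 to 1.5 CPM in shNSUN2, there mostly PSG1, while the hormone genes CGA and CGB3 were listed at 0 in every library. The 5 urothelial markers summed to 9.25 to 15.2 and 7.37 to 11.1 CPM. The prostate transcripts given above were higher in the same shNSUN2 libraries as VGLL1. In replicates 1, 2 and 3, KLK3 was at 14.0, 16.8 and 10.2 CPM, KLK2 at 11.3, 10.4 and 8.03 CPM, TMPRSS2 at 6.56, 7.00 and 6.16 CPM and MSMB at 3.92, 0.488 and 0.281 CPM. MSMB alone of these was many times higher in 1 replicate than in the others. The part of such transcripts in the VGLL1 result was not tested.

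VGLL4 fell. The gene (ENSG00000144560, chromosome 3, 11556070 to 11771350, minus strand) encodes the vestigial-like protein with a pair of Tondu motifs that acts against YAP1 on TEAD. It had 85.3, 84.1 and 82.9 CPM in FaDu and 44.5, 47.9 and 59.6 CPM in shNSUN2. All shNSUN2 libraries were below all FaDu libraries, and replicate 3 was nearest to them. The mean went from 84.1 ± 1.17 to 50.6 ± 7.92 CPM, or 60.2% of the FaDu level. As a log2 fold change this is -0.73 (standard error 0.14, adjusted p by edgeR 0.0118), larger in size than that of 74.2% of tested genes. The call was lost when FaDu replicate 1, 2 or 3 was left out, with nearly the same log2 fold changes of -0.72, -0.73 and -0.74 and edgeR adjusted p of 0.0504, 0.0538 and 0.0528. It was kept in the other 13 alternatives. VGLL4 shares 1596 exonic bases with ATG7, an autophagy gene on the other strand. ATG7 was at 45.0 ± 2.05 and 51.0 ± 5.74 CPM (log2 fold change 0.18, edgeR adjusted p = 0.374), and its groups overlapped. Without a known strand setting, reads on the shared bases cannot be told apart.

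VGLL3, a cofactor known from mesenchymal cells and from skin, was close to the limit of detection. It had 27, 23 and 107 estimated counts in FaDu, or 0.441, 0.422 and 1.43 CPM, and 67, 74 and 28 in shNSUN2, or 0.990, 1.25 and 0.415 CPM. The replicates of each group differed as much as the groups did. The log2 fold change was 0.20 with a 95% interval of -1.19 to 1.58 (edgeR adjusted p = 0.854), so neither a rise nor a fall of 2-fold is excluded. The sign changed without FaDu replicate 1, FaDu replicate 2 or shNSUN2 replicate 2. VGLL2, which is not a member, had no counts in FaDu, and 4, 8 and 15 estimated counts in the shNSUN2 replicates.

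The make-up of the vestigial-like transcripts differed between groups. Per kb of exon, VGLL4 stood at 11.6 ± 0.162 in FaDu and 7.00 ± 1.09 in shNSUN2, while VGLL1 stood at 0.501 ± 0.017 and 8.83 ± 1.04 CPM per kb. VGLL1 thus made up 4.21%, 4.02% and 4.10% of the VGLL sum in FaDu and 58.7%, 53.6% and 54.4% in shNSUN2. The log2 ratio of VGLL1 to VGLL4 went from -4.54 ± 0.035 to 0.34 ± 0.164. Which of them was the more abundant in shNSUN2 depended on the length used: per kb of the longest transcript the ratio was -0.28 ± 0.164 and VGLL1 made up 45.1% ± 2.80. The sum of the VGLL levels was 12.2 ± 0.141 CPM per kb in FaDu and 15.9 ± 1.95 in shNSUN2, but 23.3 ± 0.287 and 24.9 ± 3.17, with overlapping groups, per kb of the longest transcript.

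Ordered by CPM per kb, the FaDu cells had YAP1 (22.4 ± 1.05), TEAD4, TEAD3, VGLL4, TEAD2, WWTR1 (7.79 ± 0.329), TEAD1, VGLL1 and VGLL3 (0.060 ± 0.045). Only the neighbours TEAD3 and VGLL4 overlapped between libraries there. In shNSUN2 the order was TEAD4, YAP1 (18.4 ± 1.73), TEAD3, TEAD2, VGLL1, WWTR1 (7.63 ± 0.317), VGLL4, TEAD1 and VGLL3 (0.069 ± 0.033). There, TEAD4 and YAP1 overlapped, and so did each neighbouring pair from TEAD3 to VGLL4. TEAD1 lay apart from its neighbours in that order in both groups. On this scale VGLL1 went from rank 8 to rank 5 and VGLL4 from rank 4 to rank 7. The order depended on the length used: per kb of the longest transcript VGLL4 had rank 2 in FaDu (22.6 ± 0.315 CPM per kb) and rank 3 in shNSUN2 (13.6 ± 2.13), and VGLL1 had ranks 8 and 7 (0.635 ± 0.021 and 11.2 ± 1.32). TEAD1 had ranks 7 and 8 with either length.

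Genes with the most similar pattern were found by the root mean square distance of log2 CPM, each gene centred on its own mean, over the 6 libraries among 10495 other protein-coding genes with at least 5 CPM. Nearest to TEAD1 were BMAL2, a circadian transcription factor (distance 0.090), ETS1, an ETS family transcription factor (0.093), and GLT8D2, a glycosyltransferase-like protein (0.134). ETS1 had 137, 149 and 131 CPM in FaDu and 63.1, 47.3 and 48.8 CPM in shNSUN2, with replicate 1 the highest of its group as for TEAD1. Nearest to VGLL1 were KRT13, a keratin of mucosal squamous epithelium (0.275), RELN, a secreted matrix protein (0.291), and S100A9, a calcium-binding protein of inflamed epithelium (0.327). VGLL1 had no neighbour as close as those of TEAD1. With 6 libraries in 2 groups the measure mainly follows the difference between groups.

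The rest of the pathway was read from lists of genes, set beside 18.5% of all tested genes called. Of 24 genes of Hippo kinases and upstream regulators 23 were tested, 3 were called higher and 6 lower (39.1%), with a median log2 fold change of -0.11. PTPN14, a phosphatase that holds YAP1 in the cytoplasm, fell from 78.5 ± 2.33 to 36.0 ± 6.97 CPM (log2 fold change -1.12, edgeR adjusted p = 0.00377). Of the angiomotins, which bind YAP1 at cell junctions, AMOTL1 fell by 1.00 on the log2 scale (edgeR adjusted p = 0.00687) and AMOT rose by 1.45 from 2.30 ± 0.215 to 6.27 ± 1.72 CPM (edgeR adjusted p = 0.00736). The other angiomotin, AMOTL2, was at 51.5 ± 1.32 and 51.6 ± 7.97 CPM (log2 fold change 0.0037, edgeR adjusted p = 0.988), and was named after its values were seen. The kinase STK4 fell by 0.98 (edgeR adjusted p = 0.00838). The kinases that phosphorylate YAP1 and TAZ, LATS1 and LATS2, were chosen after their values were seen. LATS1 was at 50.4 ± 2.77 and 50.9 ± 7.04 CPM (log2 fold change 0.015, edgeR adjusted p = 0.954) and LATS2 at 22.8 ± 2.15 and 19.1 ± 4.80 CPM (-0.25, edgeR adjusted p = 0.404), with overlapping groups. NF2, the junction protein merlin, was chosen in the same way and rose from 37.1 ± 3.70 to 52.8 ± 6.01 CPM (0.51, edgeR adjusted p = 0.0406). The list thus held called genes in both directions among regulators known to restrain YAP1. The 3 called higher were 1 without FaDu replicate 1, 2 or 3 or shNSUN2 replicate 1 and with the replicate block, and the 6 called lower were 3 without FaDu replicate 2.

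**Figure D4:**
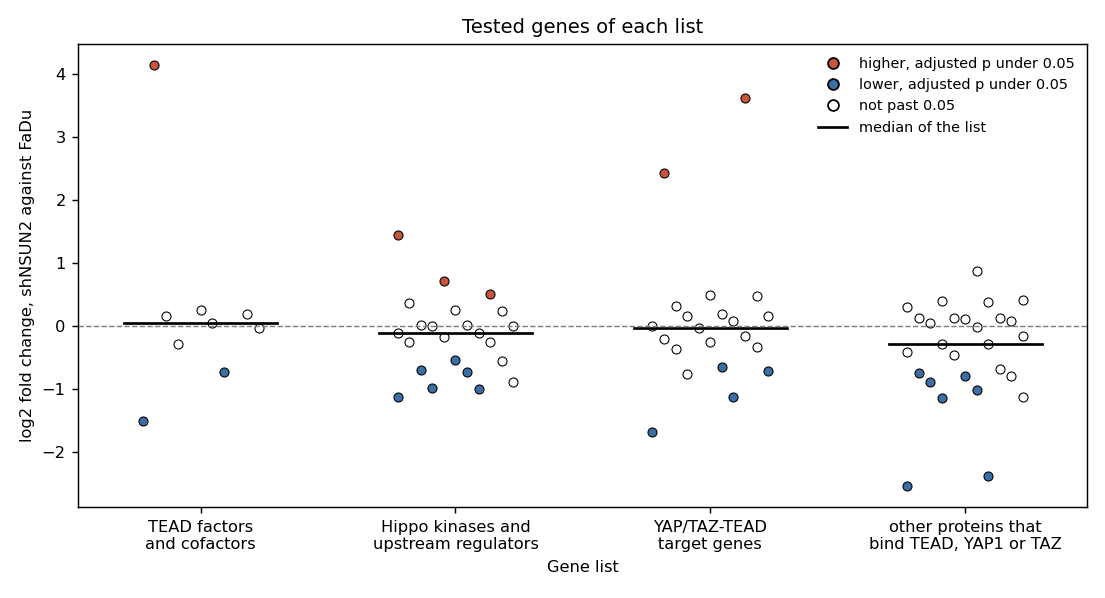
log2 fold changes of the tested genes of each list, coloured where the adjusted p was under 0.05, with the median of each list as a line. Called genes lie on both sides of 0 among Hippo regulators (3 higher, 6 lower) and target genes (2 higher, 4 lower), and only below 0 among the other proteins that bind TEAD, YAP1 or TAZ (7 lower).

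Target genes of YAP/TAZ and TEAD did not move in 1 direction. Of 22 genes 21 were tested, 2 were called higher and 4 lower (28.6%), with a median log2 fold change of -0.033. The receptor AXL fell from 28.3 ± 1.65 to 8.88 ± 1.88 CPM (log2 fold change -1.67, edgeR adjusted p = 0.00164). GADD45A, a growth arrest gene, and DOCK5, an exchange factor for RAC, fell by 0.64 and 0.71 on the log2 scale, and PTPN14, given above, is also on this list. IGFBP3, a binding protein of insulin-like growth factors, rose from 155 ± 16.1 to 827 ± 153 CPM (2.42, edgeR adjusted p = 0.000335). TGFB2, a TGF-beta ligand, rose from 0.531 ± 0.263 to 6.57 ± 0.651 CPM (3.62, edgeR adjusted p = 0.00135). The 4 called lower were 2 without FaDu replicate 1, 2 or 3 or shNSUN2 replicate 1, and with the GC and length correction 4 were called higher.

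The most cited targets were looked at after their values were seen. CCN1 had 66.6, 71.0 and 75.3 CPM in FaDu and 91.5, 67.0 and 107 CPM in shNSUN2 (log2 fold change 0.32, edgeR adjusted p = 0.251). CCN2 was at 2.48 ± 0.352 and 2.64 ± 0.292 CPM (0.09, edgeR adjusted p = 0.814). ANKRD1 was listed at 0 in 5 of the 6 libraries and was not tested. The groups of CCN1 and CCN2 overlapped.

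Of 31 other genes whose proteins bind TEAD, YAP1 or TAZ 27 were tested, 7 were called lower (25.9%) and none higher by edgeR, where 2 were higher at an unadjusted p under 0.05. DESeq2 called 1 higher and limma voom none. The median log2 fold change was -0.28. TP73, a relative of p53 that YAP1 coactivates, fell from 1.83 ± 0.204 to 0.314 ± 0.074 CPM (log2 fold change -2.54, edgeR adjusted p = 0.00237), which rests on few counts. The AP-1 subunits JUNB, JUN and FOSL1, which bind enhancers together with TEAD, fell by 1.02, 0.79 and 1.14 (edgeR adjusted p = 0.00278, 0.0130 and 0.0143). JUNB went from 215 ± 16.5 to 106 ± 13.2 CPM and FOSL1 from 226 ± 18.1 to 102 ± 33.8 CPM. The other AP-1 genes of the list were named after their values were seen. FOS was called lower (-0.88, edgeR adjusted p = 0.0468). FOSL2 (-0.79, edgeR adjusted p = 0.409) was not called. FOSB (0.39, edgeR adjusted p = 0.388) and JUND (0.30, edgeR adjusted p = 0.237) had positive values and were not called, so the AP-1 genes did not all fall. The 7 called lower were 3, 2 and 4 without FaDu replicate 1, FaDu replicate 3 or shNSUN2 replicate 1, and 2 were called higher without shNSUN2 replicate 2.

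**Figure D5:**
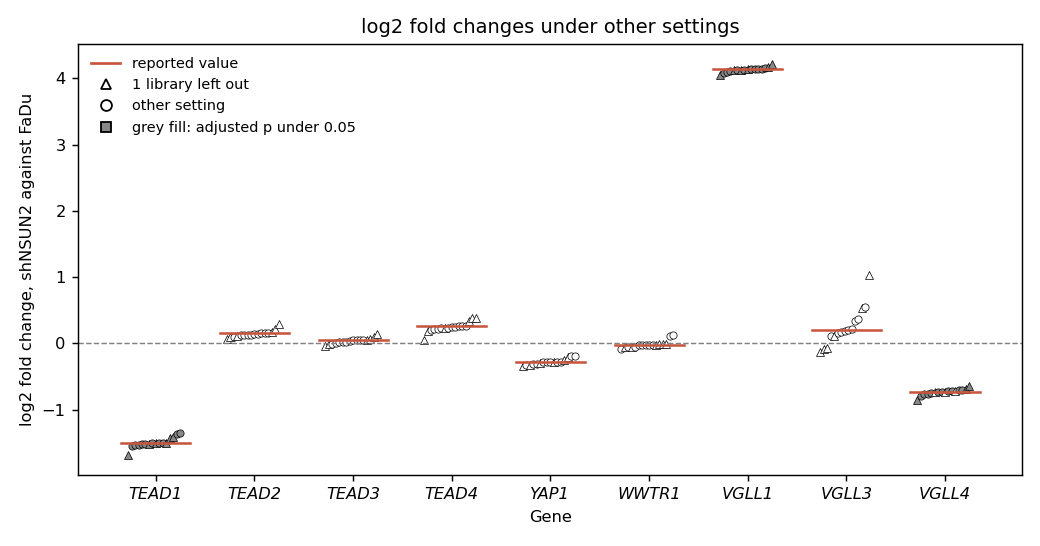
log2 fold changes of the 9 genes under 16 other settings (triangles: 1 library left out, circles: other settings, grey where the adjusted p was under 0.05), beside the reported value as a red line. TEAD1 stays between -1.69 and -1.35 and VGLL1 between 4.05 and 4.22, whereas VGLL3 runs from -0.13 to 1.03.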

How the data were processed

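The authors deposited 1 table of estimated counts per gene for 6 libraries, as whole numbers that were used as they stand. HISAT2 2.0, StringTie 1.3.0, Bowtie 0.12.2 and the mouse build mm8 appear in the submitters' processing notes, with no role stated. The table's identifiers are human. The human build, the annotation and the strand setting behind them were not given in the sources used here. Per library, 4 was 3.25 to 3.81 times as frequent as 3 and 5 on average, so low values carry more error than their size shows, and no Poisson interval is given. Symbols came from a gene name table (58472 of 58825 identifiers), and positions, exonic lengths and GC content from GENCODE 29 on GRCh38 (58552).

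The main test was edgeR 4.0.16 under R 4.3.3 (glmQLFit and glmQLFTest, robust, TMM, filterByExpr with a minimum count of 10 and total of 15), with the group alone in the design and Benjamini-Hochberg adjustment over 19081 genes, two-sided, called under 0.05. SE is the log2 fold change over the square root of F, and 95% intervals use the degrees of freedom of that test, unadjusted. The 16 alternatives used other scalings and filters, DESeq2 1.42.0, limma 3.58.1 (voom), a replicate block, GC and length correction by loess, division by 4 and leaving out each library. The fit was also run on simulated counts. They held neither the excess of the value 4 nor the GC and length trend of shNSUN2 replicate 3, so they say nothing on either.

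The members and lists were chosen with earlier results of these data known. Genes named were NSUN2, the members, genes overlapping or next to them, in each list the 4 called genes with the smallest adjusted p (all, where 6 or fewer were called), and the 3 genes nearest in pattern to TEAD1 and to VGLL1. Single genes named from the cell type marker lists, and other genes marked in the text, were chosen after their values were seen.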

Additional observations from a re-analysis of the deposited data

How the results depend on the processing

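TEAD1, VGLL1 and NSUN2 kept their direction and call under all 16 alternatives, and NSUN2 had log2 fold changes of -2.15 to -1.88. VGLL4 kept its direction, at -0.86 to -0.64, and lost its call without FaDu replicate 1, 2 or 3. The members called lower were then 1 in place of 2. TEAD2, TEAD4 and YAP1 kept their direction and were called under none, with leave-one-out log2 fold changes of 0.07 to 0.30, 0.05 to 0.38 and -0.34 to -0.21. TEAD3 turned to -0.012 with plain library totals and ran from -0.044 to 0.14 with 1 library left out. WWTR1 turned to 0.12 with the GC and length correction and to 0.11 with that correction and the replicate block. VGLL3 ran from -0.13 to 1.03 with 1 library left out and has no value under a filter of 1 CPM in 3 libraries, which it did not pass.

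Over all genes, 1629 were higher and 1903 lower. With 1 library left out the numbers ran from 478 to 2090 and from 861 to 2181, and with the GC and length correction 2726 were higher and 2210 lower (55.2% of calls higher, against 46.1% in the main test). The replicate block left 969 higher and 1401 lower. Same-numbered libraries did not deviate together (r of -0.036, 0.024 and 0.007 across genes). These values cannot exclude that a number stands for a shared culture or run, which the sources used here do not state. The block changed the call of no member. With 1 library left out, Hippo regulators called were 1 to 4 higher and 3 to 6 lower, targets 2 to 3 higher and 2 to 5 lower, and other binding proteins 0 to 2 higher and 2 to 6 lower. Hippo regulators were 1 higher with the block and 3 lower with the block and correction. Targets were 4 higher with the correction. Other binding proteins were 1 higher with DESeq2 and 1 with the correction. Per kb of the longest transcript, the VGLL1 share of the VGLL sum differed by 42.4 percentage points between groups in place of 51.5. The cause of these differences was not tested. The other changes in share (TEAD1, TEAD4, YAP1) and the 4 changes in ratio kept their direction and moved by less than the larger of the 2 group SDs, though some moved by more than the FaDu SD (TEAD1 to TEAD3 ran from -1.82 to -1.40). Precision is limited by 3 libraries per group and, for VGLL3 and the FaDu level of VGLL1, by few counts.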

Other observations

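The nearest tested protein-coding genes on either side of each member were looked at for changes along the chromosome. Of these 18, 1 was called, beside 18.5% of all tested genes. Beside VGLL1, HTATSF1, an RNA-binding cofactor of transcription elongation 19.8 kb away, was at 78.8 ± 2.26 CPM in FaDu and 101 ± 9.0 CPM in shNSUN2 (log2 fold change 0.35, edgeR adjusted p = 0.0725). On the other side, 108.7 kb away, ARHGEF6, an exchange factor for RAC and CDC42, fell from 1.33 ± 0.252 to 0.062 ± 0.107 CPM (edgeR adjusted p = 0.0293), on few counts. Neither was called higher. Beside TEAD1, PARVA, which links integrins to actin, was at 25.9 ± 0.762 and 32.2 ± 2.34 CPM (0.31, edgeR adjusted p = 0.109), and RASSF10 was at 0.611 ± 0.279 and 0.230 ± 0.078 CPM (-1.41, edgeR adjusted p = 0.105). Beside VGLL4, TAMM41 was at 7.93 ± 0.433 and 10.4 ± 1.21 CPM (0.39, edgeR adjusted p = 0.12) and HRH1 at 7.03 ± 5.71 and 10.3 ± 7.45 CPM (0.56, edgeR adjusted p = 0.766). The levels of HRH1 differed more within each group than between them. Beside YAP1, the apoptosis inhibitor BIRC3 was at 14.7 ± 1.92 and 24.1 ± 7.55 CPM and CEP126 at 6.32 ± 0.231 and 3.84 ± 1.96 CPM, neither past the test (edgeR adjusted p = 0.0780 and 0.233).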
